A study of Mus musculus with 15 samples.

Results

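Of the 92219 distinct TCR alpha CDR3 peptides listed in 15 libraries of mouse CD8+ T cells, 2311 ended in GADRLT, and these TRAJ45 loops are described here. They were chosen by their last 6 residues alone, in any library and at any read count, so that no abundance entered the choice. GADRLT is the end that the mouse alpha joining segment TRAJ45 gives to the loop. The gene table of the GRCm38.p6 assembly places Traj45 between Traj46 and Traj44. The joining segment itself was not read from a reference sequence, and a loop that kept fewer than 6 of its residues was not counted.

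The libraries fall into 3 groups of 5. Tumour libraries came from CD8b+ CD4neg T cells of prostate tumours of TCRbtg TRAMP+/- males aged 27 weeks. MP (memory-phenotype) libraries came from CD8b+ CD4neg CD44hi CD122+ cells, and Naive libraries from CD8b+ CD4neg CD44lo CD122neg cells, both from pooled spleen and lymph nodes of TCRbtg males aged 9 weeks. All mice were C57BL/6 and carried the same transgenic TCR beta chain, so the alpha chains were sampled beside 1 beta chain and not in a free repertoire. TRAMP mice carry a transgene that drives prostate cancer. The MP and Naive cells differ in the sort gate, while Tumour libraries differ from both of the others in tissue, age, genotype and gate, and these cannot be told apart. The design text gives 5 different mice for the spleen and lymph node cells, and MP and Naive libraries may thus share mice. They were tested as unpaired. The files hold CDR3 lists and no gene expression, so the sorted cell types could not be checked against markers.

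The CDR3 is the hypervariable loop of a T cell receptor chain and lies over the peptide presented by MHC. In the alpha chain its first residues come from a variable (TRAV) segment, its last residues from a joining (TRAJ) segment, and the residues between from trimming and untemplated addition at the junction. Loops that share a joining end can therefore differ in how much of the segment they kept and in what precedes it. CD8+ T cells with high CD44 and CD122 have a memory phenotype, and such cells are also found in mice with no known infection.

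The residue before GADRLT was E in 2115 of 2311 loops (91.5%). T stood before EGADRLT in 72.8% of the loops with a residue there, and N before TEGADRLT in 26.4%. No residue before NTEGADRLT reached 25% (the most frequent, M, stood in 16.8%), and NTEGADRLT was taken as the longest shared end. By the longest end that a loop kept, 405 loops ended in NTEGADRLT, 1133 in TEGADRLT, 577 in EGADRLT and 196 in GADRLT alone. Loops were 7 to 21 residues long, and 12 and 13 residues were the commonest lengths, with 612 and 615 loops. The loops that lead each group are shown here because the results turn on which of them was present in which library. The first 3 lines give the top loops of Tumour 4, Tumour 3 and Tumour 2.
Tumour 4: ALIGNTEGADRLT
Tumour 3: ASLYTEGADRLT
Tumour 2: APSTEGADRLT
MP, highest mean share: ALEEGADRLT
MP, listed in all 5 MP libraries: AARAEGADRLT
MP, top loop of MP 5: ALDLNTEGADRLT
MP, top loop of MP 3: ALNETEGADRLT
Naive, top loop of all 5 libraries: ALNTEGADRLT
Naive, the next by mean share: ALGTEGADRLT
Naive, the next by mean share: AYTEGADRLT
MP and Naive, among the top 10 of both: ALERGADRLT

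Total reads per library ran between 627205 and 943699 in Tumour, between 574484 and 881988 in MP and between 547665 and 702663 in Naive libraries. The lowest count listed was 2 reads. MP 1 and MP 5 listed 12401 and 13950 distinct CDR3s, against 2216 to 3392 in the other 3 MP libraries, and Tumour 5 listed only 3 TRAJ45 loops. The shares and the likeness of libraries are given also without these libraries where that moved them. In sorted bulk RNA, fewer cells with a loop and less receptor RNA per cell cannot be told apart. Reads after PCR are not independent molecules, and p-values measure the spread between libraries.

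TRAJ45 loops took a smaller share of reads in MP and in Tumour libraries than in Naive libraries, and the Tumour and MP shares overlapped. They took 0.207, 0.568, 0.765, 1.03 and 0.0898% of the reads of Tumour 1 to 5. In MP 1 to 5 they took 0.904, 0.469, 0.893, 0.981 and 0.785%, and in Naive 1 to 5 they took 1.69, 1.95, 1.67, 1.64 and 1.65%. All Tumour and MP libraries lay below the lowest Naive library. The means were 0.532 ± 0.389% in Tumour, 0.807 ± 0.201% in MP and 1.72 ± 0.131% in Naive libraries (SD, n = 5 each).

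The MP share was 2.13-fold lower than the Naive share, a difference of -0.913 percentage points (exact two-sided permutation test, adjusted p = 0.0123 over 45 six-residue ends with a mean share of at least 0.1%). A fall was common among joining ends: 48.9% of the 45 ends were called lower in MP and 28.9% higher. The log2 ratio of the GADRLT end was -1.09, against a median of -0.45 over the 45 ends, and it ranked 9 of 45 from the lowest. Without MP 1 and MP 5 the difference was -0.938, with an adjusted exact p of 0.0507 over the fewer splits that 3 against 5 libraries allow. The Tumour share was 3.23-fold lower than the Naive share (difference -1.19 percentage points, adjusted exact permutation p = 0.0278 over 42 ends), where 31.0% of the ends were called lower and 2.38% higher. It did not pass against MP (difference -0.275, adjusted exact permutation p = 0.339 over 46 ends, of which 26.1% were called lower and 6.52% higher). Without Tumour 5 the difference of Tumour from MP was -0.164 (adjusted exact p = 0.527) and that of Tumour from Naive -1.08 (adjusted exact p = 0.0476), and without any 1 Naive library its adjusted exact p was 0.0513 or 0.0556.

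Counted as distinct peptides, the groups lay closer together. TRAJ45 loops made up 1.58 ± 0.968% of the distinct CDR3s in Tumour, 1.94 ± 0.450% in MP and 2.41 ± 0.0771% in Naive libraries (SD, n = 5 each). Neither the MP difference from Naive (-0.470 percentage points, adjusted exact permutation p = 0.0744) nor the Tumour difference from Naive (-0.834, adjusted exact p = 0.172) passed the threshold, beside 33.3% and 23.8% of ends called lower, and 17.8% and 11.9% called higher, in these comparisons. The Tumour difference from MP was -0.364 (adjusted exact p = 0.664), and -0.0461 without Tumour 5 (adjusted exact p = 0.968), with 8.70% of ends called in each direction. Tumour libraries 1 to 5 listed 15, 43, 26, 33 and 3 TRAJ45 loops, MP libraries 274, 43, 40, 72 and 277, and Naive libraries 699, 362, 641, 589 and 656. Of the Tumour and MP libraries, MP 5 listed the most, and it listed fewer than any Naive library. Merging loops 1 substitution from a far more abundant CDR3 left 12, 37, 17, 13 and 3 in Tumour 1 to 5.

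**Figure D1:**
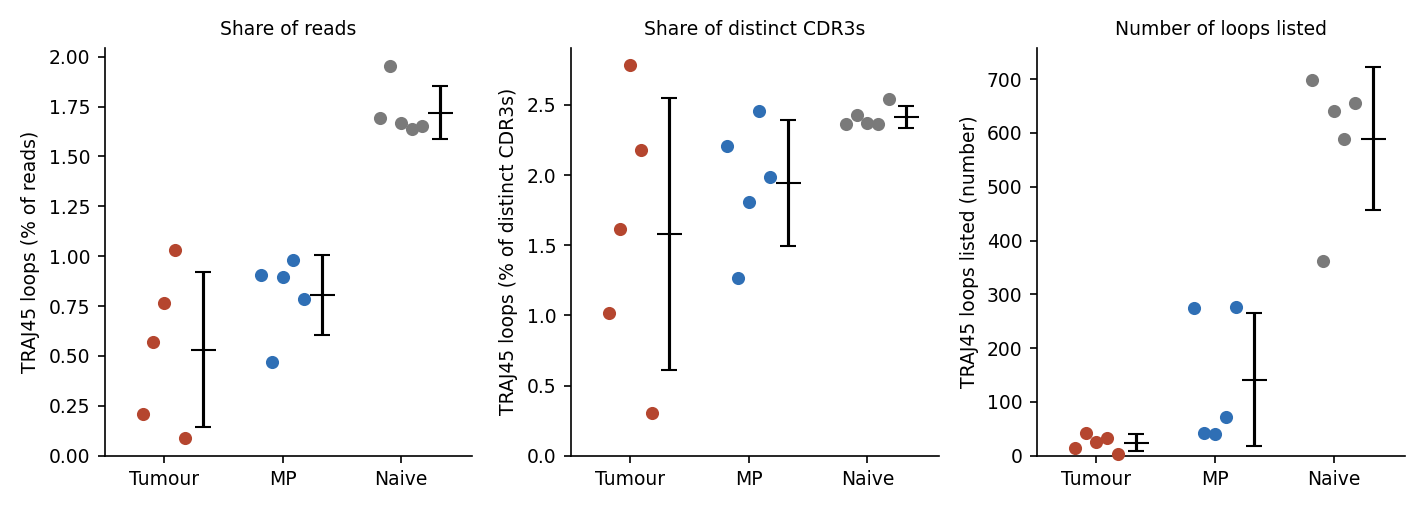
Each point is 1 library of Tumour, MP or Naive; the vertical axes give TRAJ45 loops as percent of reads (left), as percent of distinct CDR3s (middle) and as the number listed (right), with mean and SD in black. The read share averaged 0.532% in Tumour, 0.807% in MP and 1.72% in Naive libraries, and MP 1 and MP 5 stand apart in the number listed.

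Most loops were seen once among the libraries of a group. Of 113 loops listed in Tumour libraries, 107 stood in 1 tumour only and none in all 5. Of 533 listed in MP, 420 stood in 1 library and 4 in all 5, and of 1952 listed in Naive, 1451 stood in 1 library and 82 in all 5. The loops in 1 library only were 94.7% of those listed in Tumour, 78.8% in MP and 74.3% in Naive libraries, against 85.7, 77.4 and 68.5% of other CDR3s, and most other CDR3s too were thus listed once. The loops listed in all 5 libraries of their group held 8.77 ± 2.71% of TRAJ45 reads in MP and 72.3 ± 1.19% in Naive libraries (SD, n = 5 each). For all other CDR3s these shares were 66.3 ± 1.48% in MP and 78.9 ± 0.566% in Naive libraries. By group, 1696 loops were listed in Naive libraries only, 281 in MP only, 67 in Tumour only, 221 in MP and Naive, 15 in Tumour and Naive, 11 in Tumour and MP, and 20 in all 3 groups. Naive-only loops were 73.4% of TRAJ45 loops against 67.3% of other CDR3s, MP-only loops 12.2% against 15.6%, and Tumour-only loops 2.90% against 3.97%. No loop was listed in all 15 libraries. These counts were made without folding, which merges a CDR3 with a far more abundant one 1 substitution away. Folding merged 20.0, 14.0, 34.6, 60.6 and 0% of the TRAJ45 loops of Tumour 1 to 5. It merged 0.730 to 12.5% of them in MP and 3.31 to 5.30% in Naive libraries. Of all distinct CDR3s, it merged 28.8% (Tumour 2) to 69.0% (Tumour 5) in tumours. How many loops would then stand in 1 tumour only, and whether merged loops are errors, was not tested.

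The Naive leaders were the same in every mouse. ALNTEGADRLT, a loop with the full NTEGADRLT end after the 2 residues AL, was the most abundant TRAJ45 loop of each Naive library. It took 0.000348% of reads in MP 4 and 0.0127% in MP 5 and was not listed in the other MP libraries or in any tumour, against 0.307, 0.283, 0.282, 0.288 and 0.295% in Naive 1 to 5. Its MP and Naive values did not overlap (0.00261 ± 0.00565% in MP against 0.291 ± 0.0103% in Naive, SD, n = 5 each). The log2 fold change was -6.79 (SE 2.00, edgeR adjusted p = 0.0142), and in tumours it was at least 746-fold lower than in Naive libraries, with 3 reads per library as the floor for a loop that is not listed.

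Other abundant Naive loops followed the same pattern. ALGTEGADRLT took 0.00295% of MP 1 and 0.00219% of MP 5 and was listed in no other MP or Tumour library, against 0.136, 0.113, 0.120, 0.118 and 0.0998% in Naive 1 to 5 (MP over Naive log2 fold change -6.80, SE 1.64, edgeR adjusted p = 0.00563). AYTEGADRLT was listed in MP 1 alone of the MP libraries, at 0.00249%, against 0.0937 to 0.126% in the Naive libraries (edgeR adjusted p = 0.00502). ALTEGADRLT averaged 0.000331 ± 0.000590% in MP and 0.0813 ± 0.0123% in Naive libraries (edgeR adjusted p = 0.00149). In all 3 of these loops only MP 1 or MP 5, the libraries with the most distinct CDR3s, held any MP reads. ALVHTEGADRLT, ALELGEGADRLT and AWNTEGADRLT were listed in all 5 Naive libraries and in no MP library, and were at least 93.2-fold, 64.2-fold and 47.1-fold lower in MP. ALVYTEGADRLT had 2 reads in MP 5 and none elsewhere in MP, against 0.0210 to 0.0314% in Naive libraries. Of the 10 leading Naive loops, 3 kept all of NTEGADRLT, namely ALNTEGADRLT, AFNTEGADRLT and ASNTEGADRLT, and all 3 were called lower in MP. So were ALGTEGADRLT, AYTEGADRLT, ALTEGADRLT, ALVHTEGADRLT and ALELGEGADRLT, which are among the 10 and kept a shorter end. NTEGADRLT stood in 13 of all 46 loops called lower in MP and in 26 of the 107 tested.

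Not every leading Naive loop was low in MP. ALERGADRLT, which kept GADRLT alone, took 0.0333, 0.0397, 0.0345 and 0.0159% in MP 1, 3, 4 and 5 and was not listed in MP 2, against 0.0226 to 0.0356% in Naive libraries. Its MP over Naive log2 fold change was -0.28 (SE 1.10, edgeR adjusted p = 0.847). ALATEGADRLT, with 0.00988 ± 0.0138% in MP and 0.0355 ± 0.00137% in Naive libraries, also did not pass (log2 fold change -1.84, SE 1.23, edgeR adjusted p = 0.225). Neither loop was listed in any tumour.

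Loop by loop, 107 of the 2244 TRAJ45 loops listed in MP or Naive libraries had at least 10 reads in at least 3 of the 10 libraries and were tested, and 46 of them were called lower and 12 higher in MP. Over all 5954 CDR3s tested, 48.1% were called lower and 12.6% higher, so that the TRAJ45 counts lay near the background. The median log2 fold change was -2.67 over the TRAJ45 loops tested and -3.35 over all CDR3s tested. Naive libraries alone brought 80 TRAJ45 loops past the filter and MP libraries alone 25. The sums below are of loops chosen by their difference in these same libraries, so that the choice itself sets the gap between groups. The 46 loops called lower summed to 0.00868 ± 0.0108% of MP reads and to 1.01 ± 0.0612% of Naive reads, with 28 unlisted in all 5 MP libraries. Of these 46, MP 1 and MP 5 listed 10 and 13, and MP 2, MP 3 and MP 4 listed 1 each. The 12 loops called higher summed to 0.193 ± 0.0497% of MP reads and to 0.00720 ± 0.00283% of Naive reads (SD, n = 5 each), with 7 unlisted in all 5 Naive libraries. The lowest MP sum of these 12 was 0.135%, in MP 2. With MP 1 and MP 5 left out, 86 loops were tested, of which 59 were called lower and 3 higher. A loop of MP alone then had to reach 10 reads in every MP library left, so that the number called higher was partly set by the filter. The share called over all CDR3s in that fit is not given.

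**Figure D2:**
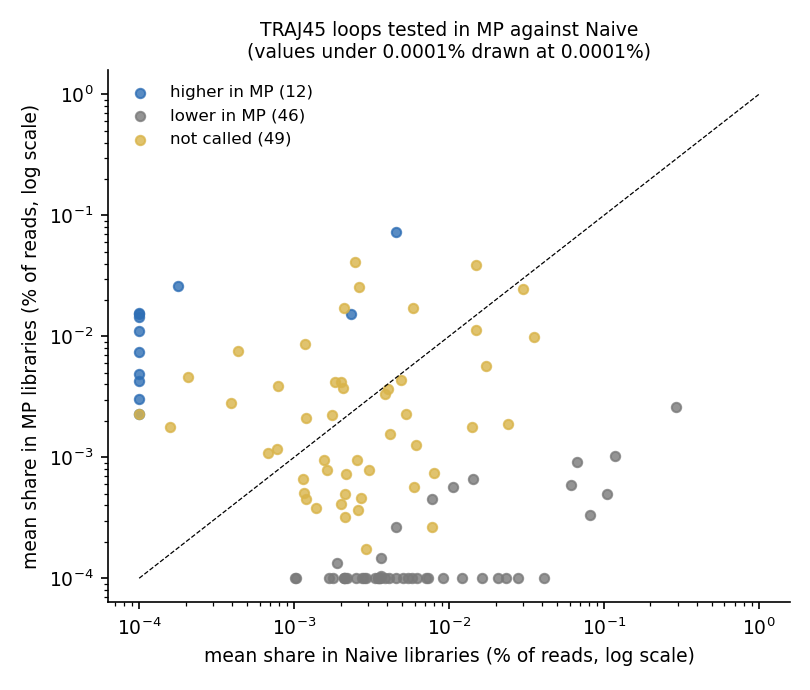
Each point is 1 of the 107 TRAJ45 loops tested, at its mean share of reads in Naive libraries (horizontal, log scale) and in MP libraries (vertical, log scale), coloured by its call; the dashed line marks equal shares. The 46 loops called lower in MP lie below the line, 28 of them unlisted in MP, and the 12 called higher lie above it.

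Among the loops higher in MP, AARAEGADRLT and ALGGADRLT were listed in every MP library and nearly absent from Naive libraries. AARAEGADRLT took 0.0372, 0.0241, 0.00956, 0.0284 and 0.0320% of MP 1 to 5, against 0.000522% in Naive 3, 0.000362% in Naive 4 and no listing in the other Naive libraries. The groups did not overlap, and the MP mean was 148 times the Naive mean (log2 fold change 7.09, SE 1.36, edgeR adjusted p = 0.00149). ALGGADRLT took 0.0252, 0.00132, 0.00822, 0.0225 and 0.0200% of MP 1 to 5, and had 2 reads in Naive 5 and none in the other Naive libraries (log2 fold change 7.53, SE 1.47, edgeR adjusted p = 0.00168). The other loops listed in all 5 MP libraries were AAKSEGADRLT (0.000598 to 0.0218%, not listed in Naive, edgeR adjusted p = 0.00315) and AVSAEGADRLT. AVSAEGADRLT took 0.00658 to 0.0226% in MP against 0.00110 to 0.00583% in Naive libraries, again without overlap (log2 fold change 2.69, SE 0.75, edgeR adjusted p = 0.0111; blocked by library number, adjusted p = 0.214). Of these 4 loops, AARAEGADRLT, AAKSEGADRLT and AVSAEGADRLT kept EGADRLT and none kept TEGADRLT.

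The loop with the highest mean share in MP was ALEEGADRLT, the top TRAJ45 loop of MP 1 and MP 4. It took 0.0912, 0.119, 0.115 and 0.0415% of MP 1, 3, 4 and 5 and was not listed in MP 2, against 0.00398, 0.00895, 0.00488, 0.00308 and 0.00189% in Naive 1 to 5. It was called higher in MP (log2 fold change 4.00, SE 1.37, edgeR adjusted p = 0.0287), but the call was lost without Naive 1, 3, 4 or 5 (highest adjusted p = 0.0661) and in the fit blocked by library number (adjusted p = 0.117). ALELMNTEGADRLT, listed in 4 MP libraries at 0.00792 to 0.0260% and in no Naive library, was higher in MP (edgeR adjusted p = 0.00975). EDTEGADRLT was likewise listed in 4 MP and no Naive libraries (edgeR adjusted p = 0.0121). ALGADRLT, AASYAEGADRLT and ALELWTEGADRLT, each in 3 MP and no Naive libraries, were called with edgeR adjusted p = 0.0343, 0.0323 and 0.0301. Leaving out any 1 Naive library ended the calls of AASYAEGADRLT and ALGADRLT, as did any but Naive 4 for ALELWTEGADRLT (highest adjusted p = 0.0606).

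Several abundant MP loops belonged to 1 mouse. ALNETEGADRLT took 0.255% of MP 3 and was listed nowhere else, and APTCTEGADRLT took 0.139% of MP 3 and 0.000585% of MP 5. ATNTEGADRLT took 0.0850% of MP 2 and no other MP library, against 0.00327 to 0.00895% of every Naive library. Its MP over Naive log2 fold change was 1.52 with MP 2 and -8.26 without it. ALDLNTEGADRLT took 0.0636, 0.0783 and 0.0646% of MP 1, 4 and 5, against 0.00285, 0.00657, 0.00157 and 0.00145% in Naive 1 to 4, and did not pass (log2 fold change 4.04, SE 2.00, edgeR adjusted p = 0.106). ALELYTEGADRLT averaged 0.0253 ± 0.0197% in MP and 0.00261 ± 0.00182% in Naive libraries (edgeR adjusted p = 0.0567), and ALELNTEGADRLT averaged 0.0171 ± 0.0154% in MP and 0.00209 ± 0.00374% in Naive libraries (edgeR adjusted p = 0.147). DESeq2 called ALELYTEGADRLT (adjusted p = 0.00969) and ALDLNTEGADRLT (adjusted p = 0.0336) higher in MP. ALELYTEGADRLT also passed in edgeR with TMM factors (adjusted p = 0.0490) and with a filter of 50 reads (adjusted p = 0.0452), and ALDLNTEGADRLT with no count filter (adjusted p = 0.0482).

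By reads, TRAJ45 loops less often had E before GADRLT in MP than in Naive libraries. The residue E stood before GADRLT in 89.9 ± 4.79% of TRAJ45 reads in MP and in 95.7 ± 0.499% in Naive libraries, a difference of -5.84 percentage points (exact two-sided permutation test, adjusted p = 0.0278 over 7 features). MP 2, with 81.4%, was the lowest MP library, and the highest MP library, MP 3, at 93.2%, lay below the lowest Naive library at 95.1%. Without MP 1 and MP 5 the difference was -6.81 (adjusted exact p = 0.125, over the fewer splits that 3 against 5 libraries allow). Loops ending in EGADRLT without the T held 23.6 ± 3.08% of MP and 10.2 ± 0.800% of Naive TRAJ45 reads. Loops that kept all of NTEGADRLT held 26.4 ± 8.58% in MP and 36.0 ± 1.34% in Naive libraries. Counted as distinct loops, the ends were more alike: EGADRLT without the T stood in 22.6% of the loops in MP and 22.0% in Naive libraries, NTEGADRLT in 20.9% and 18.7%, and the difference in E before the end did not pass (-5.15 percentage points, adjusted exact p = 0.0661). In Tumour libraries E preceded GADRLT in 84.1 ± 27.2% of TRAJ45 reads (SD, n = 5). That share was 100% in Tumour 1, 3 and 4 and 37.2% in Tumour 5, whose 3 loops were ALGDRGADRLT, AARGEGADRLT and ALPGADRLT.

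**Figure D3:**
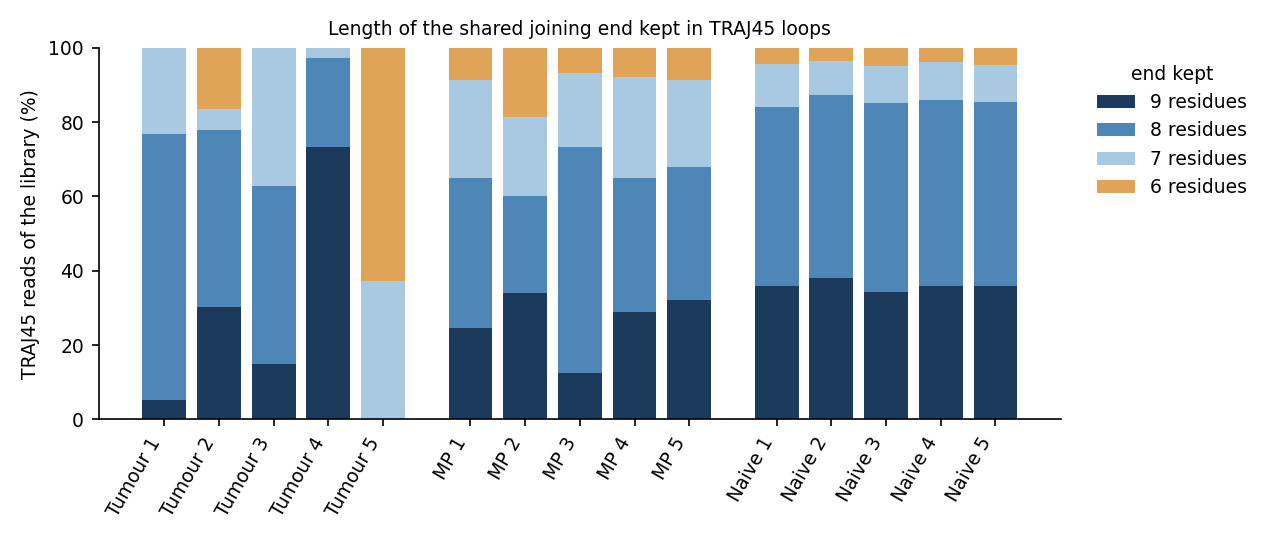
Stacked bars give, for each library, the percent of TRAJ45 reads in loops whose longest shared joining end was 9, 8, 7 or 6 residues long. The ends of 7 residues took 23.6% of TRAJ45 reads in MP against 10.2% in Naive libraries on average, the 5 Naive libraries are alike, and each tumour has its own proportions.

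The residues before GADRLT also differed in number relative to other loops. By reads, 5.63 ± 0.196 residues preceded GADRLT in MP and 5.34 ± 0.0451 in Naive libraries, while 4.89 residues in MP and 5.23 in Naive libraries preceded the last 6 residues of all other CDR3s. TRAJ45 loops thus exceeded the other loops of their library by 0.740 ± 0.159 residues in MP and by 0.110 ± 0.0478 in Naive libraries (difference 0.630, adjusted exact permutation p = 0.0278). The difference was 0.555 without MP 1 and MP 5 (adjusted exact p = 0.125, again over fewer splits). With each distinct loop counted once, the excess over other loops was also larger in MP (difference 0.391, adjusted exact p = 0.0397), while the number of residues itself was lower in MP than in Naive libraries (difference -0.280). The adjusted exact p of this lower number was 0.0595 over the 5 features this weighting defines and 0.0417 over 7 features with the share of the top loop included.

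Net charge before GADRLT, counting K and R against D and E, averaged -0.687 ± 0.395 in Tumour, -1.19 ± 0.144 in MP and -1.02 ± 0.0283 in Naive libraries by reads. TRAJ45 loops were less negative in Tumour than in Naive libraries (difference 0.330, adjusted exact permutation p = 0.0278). The difference was 0.159 without Tumour 5, whose value was 0. With each distinct loop counted once, the Tumour difference from Naive was 0.225 (exact permutation p before adjustment = 0.325). By reads, the Tumour difference from MP was 0.499 and did not pass (adjusted exact permutation p = 0.0556). All other CDR3s averaged 0.113 in Tumour, -0.153 in MP and -0.179 in Naive libraries. The gap between TRAJ45 loops and other loops did not differ between Tumour and Naive libraries with all libraries (difference 0.0391, adjusted exact p = 1), and was -0.181 without Tumour 5 (adjusted exact p = 0.0278). MP and Naive libraries did not pass in charge (difference -0.168, adjusted exact p = 0.0667).

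Loops that start with AL and an acidic residue, E or D, took a large share of TRAJ45 reads in MP. This class was chosen after its values were seen and has no test. It held 13.4, 4.55, 0, 0 and 0% of TRAJ45 reads in Tumour 1 to 5. In MP 1 to 5 it held 40.2, 20.8, 17.9, 39.8 and 37.3%, and in Naive 1 to 5 it held 10.6, 11.0, 9.49, 8.19 and 8.28%. All MP libraries lay above all Naive libraries. Among all other CDR3s MP lay below Naive, with means of 1.68% in Tumour, 2.30% in MP and 4.10% in Naive libraries. Counted as distinct loops, MP and Naive lay closer together. The class made up 29, 7, 4, 12 and 43 of the 274, 43, 40, 72 and 277 loops of MP 1 to 5. In Naive 1 to 5 it made up 70, 36, 53, 45 and 57 of 699, 362, 641, 589 and 656 loops. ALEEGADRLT, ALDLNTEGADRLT, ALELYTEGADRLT, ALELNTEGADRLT and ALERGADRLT, all among the 10 most abundant loops of MP, are of this class, as is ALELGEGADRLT, which was listed in Naive libraries only.

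**Figure D4:**
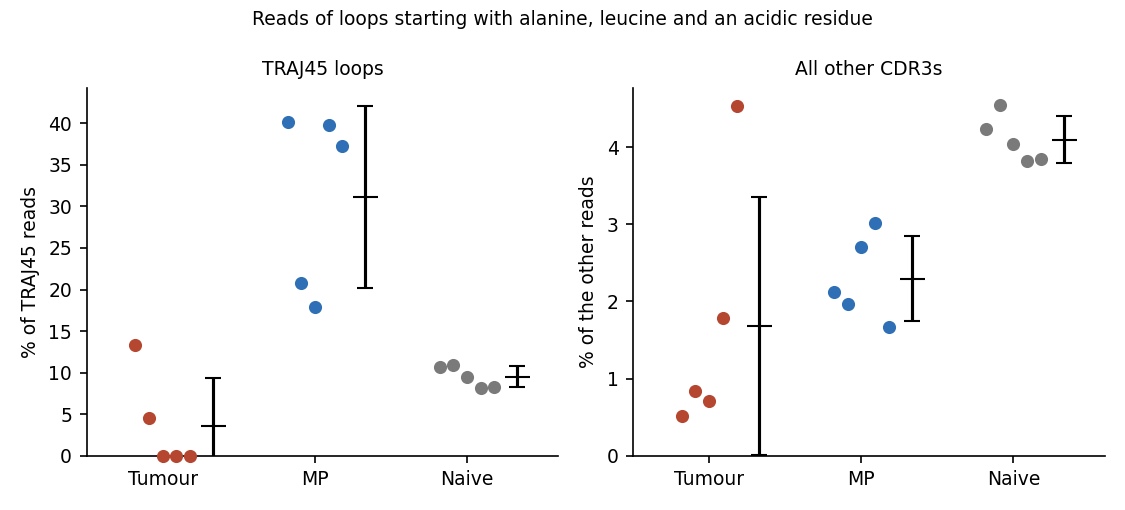
Each point is 1 library; the vertical axes give loops starting with alanine, leucine and an acidic residue as percent of TRAJ45 reads (left) and as percent of all other reads (right), with mean and SD in black. On the left the means are 3.58% in Tumour, 31.2% in MP and 9.51% in Naive libraries, and on the right 1.68%, 2.30% and 4.10%.

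The first 2 residues differed for some starts. They cannot be read as use of variable segments, which the lists do not give. In loops such as AYTEGADRLT and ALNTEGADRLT the second residue stands directly before the shared end, where the junction lies. AL took 36.3 ± 23.3% of TRAJ45 reads in Tumour, 56.6 ± 5.84% in MP and 57.0 ± 0.728% in Naive libraries. AY starts held 0.887 ± 1.98% in Tumour, 0.0789 ± 0.147% in MP and 6.36 ± 0.237% in Naive libraries. They were lower in MP (adjusted exact permutation p = 0.0159 over 6 starts) and in Tumour libraries (adjusted exact p = 0.0476) than in Naive libraries, and most of their Naive reads were AYTEGADRLT. AS starts were lower in MP than in Naive libraries (0.211 ± 0.326% against 4.52 ± 0.624%, adjusted exact p = 0.0159), and AA starts were higher (12.7 ± 3.05% against 7.10 ± 1.74%, adjusted exact p = 0.0159). Without MP 1 and MP 5 each of these 3 MP differences kept its sign, with an adjusted exact p of 0.0714. In tumours AS starts held 35.4% of Tumour 3, nearly all of it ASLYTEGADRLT, and AP starts held 29.0% of Tumour 2.

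Each tumour held a few dominant TRAJ45 loops, and the top loop differed between tumours. The most abundant loop took 40.3 ± 11.4% of TRAJ45 reads in Tumour, 15.3 ± 8.28% in MP and 17.0 ± 1.47% in Naive libraries. Tumour exceeded Naive (adjusted exact permutation p = 0.0278) and did not pass against MP (adjusted exact p = 0.0556). The top share depends also on how many loops are listed, and tumours listed fewer than Naive libraries. In Tumour 5, with 3 loops, it could not lie below 33.3% and was 39.1%. Among all other CDR3s the top share was 15.4% in Tumour, 5.48% in MP and 2.11% in Naive libraries. The gap between TRAJ45 loops and other CDR3s did not pass in Tumour against Naive (difference 9.94, adjusted exact p = 0.278). In Tumour 4 ALIGNTEGADRLT took 0.585% of all reads and 56.9% of TRAJ45 reads, and outside that tumour it had 3 reads, in MP 5. In Tumour 3 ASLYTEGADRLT took 0.269% of reads, and elsewhere it had only 0.000724% in Naive 4. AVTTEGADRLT led Tumour 1 with 0.0912%, and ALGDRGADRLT led Tumour 5 with 0.0351%. A loop of 17 residues that begins with AVS and kept NTEGADRLT took 0.125% of Tumour 4, and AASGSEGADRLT took 0.0958% of Tumour 3, and neither was listed in any other library. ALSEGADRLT and ALITNTEGADRLT took 0.0966 and 0.0788% of Tumour 3, were in no MP library, and reached at most 0.00434 and 0.000362% in a Naive library.

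6 TRAJ45 loops were listed in more than 1 tumour, all of them named here whatever their level. APSTEGADRLT took 0.148% of Tumour 2 and 0.0340% of Tumour 4, against 0.00175% in MP 5 and 0.000314 to 0.00146% in all 5 Naive libraries. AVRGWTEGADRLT took 0.205% of Tumour 4 and 0.00822% of Tumour 2, and no MP or Naive library listed it. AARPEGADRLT took 0.0896% of Tumour 3 and 0.000899% of Tumour 2, and was in 4 MP and no Naive libraries. APLNTEGADRLT was the only loop in 3 tumours, with 20, 2 and 198 reads in Tumour 1, 2 and 3, and it too was listed in 4 MP libraries and no Naive library. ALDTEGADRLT had 201 and 14 reads in Tumour 1 and 2. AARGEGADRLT had 11 and 315 reads in Tumour 2 and 5. Between 15.4 and 100% of the loops of a tumour were also listed in some MP library, and between 19.2 and 66.7% in some Naive library, with Tumour 3 the lowest and Tumour 5 the highest in both. These shares of loops were counted without folding. Of the TRAJ45 reads of a tumour, loops also listed in MP held 17.4% (Tumour 3) to 100% (Tumour 5). Loops also listed in Naive held 7.42% (Tumour 4) to 80.7% (Tumour 1).

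Against MP, 32 TRAJ45 loops were tested and 19 were called lower in tumours, none of which was listed in any tumour. Over all 1666 CDR3s tested 66.0% were called lower and 7.68% higher. The filter asks for 10 reads in 3 libraries, which 0 TRAJ45 loops reached in Tumour libraries alone and 25 in MP libraries alone, so that loops dominant in 1 or 2 tumours hardly entered the test and the number called higher says little. By edgeR it was 0 (0 at an unadjusted p under 0.05), and DESeq2 called 1, APSTEGADRLT (edgeR log2 fold change 6.63, SE 3.18, adjusted p = 0.0769). The 19 loops held 0.323 ± 0.101% of MP reads. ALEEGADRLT was among them, at least 188-fold lower in tumours (edgeR adjusted p = 0.0146), as were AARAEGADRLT (at least 67.3-fold, adjusted p = 0.0105) and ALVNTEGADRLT (at least 99.6-fold, adjusted p = 0.0152). Without MP 1, 10 of 19 loops tested were called lower, without MP 5, 10 of 18, and without both, 2 of 5. With fewer MP libraries, fewer loops reached the filter. The shares called over all CDR3s in these fits are not given.

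Against Naive, 82 loops were tested and 76 were called lower in tumours, with 86.7% of all 4671 CDR3s tested called lower and 3.38% higher. Here 80 TRAJ45 loops reached the filter in Naive libraries alone and 0 in tumours alone, so that the lack of calls in the other direction (0 by edgeR, by DESeq2 and at an unadjusted edgeR p under 0.05) was largely set by the filter. The 76 loops summed to 0.000769 ± 0.00105% of Tumour reads and to 1.25 ± 0.0818% of Naive reads (SD, n = 5 each), with 72 unlisted in all 5 tumours. They were chosen by their difference in these same libraries, and the choice itself sets this gap. The shares of loops called lower lay near those of all CDR3s in both tumour comparisons. The 3 comparisons share libraries and are not independent of each other.

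The libraries were compared by the Morisita-Horn index, which is 1 where the loops of 2 libraries have equal shares and 0 where no loop is shared. Over TRAJ45 loops the mean index was 0.00564 ± 0.0144 between tumours, 0.341 ± 0.302 between MP libraries and 0.979 ± 0.0115 between Naive libraries (SD over 10 pairs each). MP pairs ran between 0.0163, for MP 2 and MP 3, and 0.839, for MP 1 and MP 5. MP 1, MP 4 and MP 5 were alike at 0.693 or more, and MP 2 and MP 3 were at 0.259 or less with every other MP library. Between MP and Naive libraries the mean was 0.0668, between Tumour and MP 0.00864, and between Tumour and Naive 0.00155. The mean index within the groups exceeded that between them by 0.593 in MP against Naive, 0.164 in Tumour against MP and 0.491 in Tumour against Naive (exact one-sided permutation p = 0.00794 each). In Tumour against MP this excess came from the MP pairs, since tumours were less alike among themselves (0.00564) than tumours and MP libraries were (0.00864). Among MP 2, MP 3 and MP 4 alone the mean was 0.121, and the excess was then 0.512 in MP against Naive and 0.0588 in Tumour against MP (exact one-sided permutation p = 0.0179 each, the smallest that 3 against 5 libraries allow). Over all CDR3s that are no TRAJ45 loops, MP libraries had a mean index of 0.916 and tumours of 0.220, while Naive libraries had 0.973. Among joining ends, GADRLT ranked 12 of 53 from the lowest within MP (median 0.766) and 5 of 34 within Tumour (median 0.0698).

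**Figure D5:**
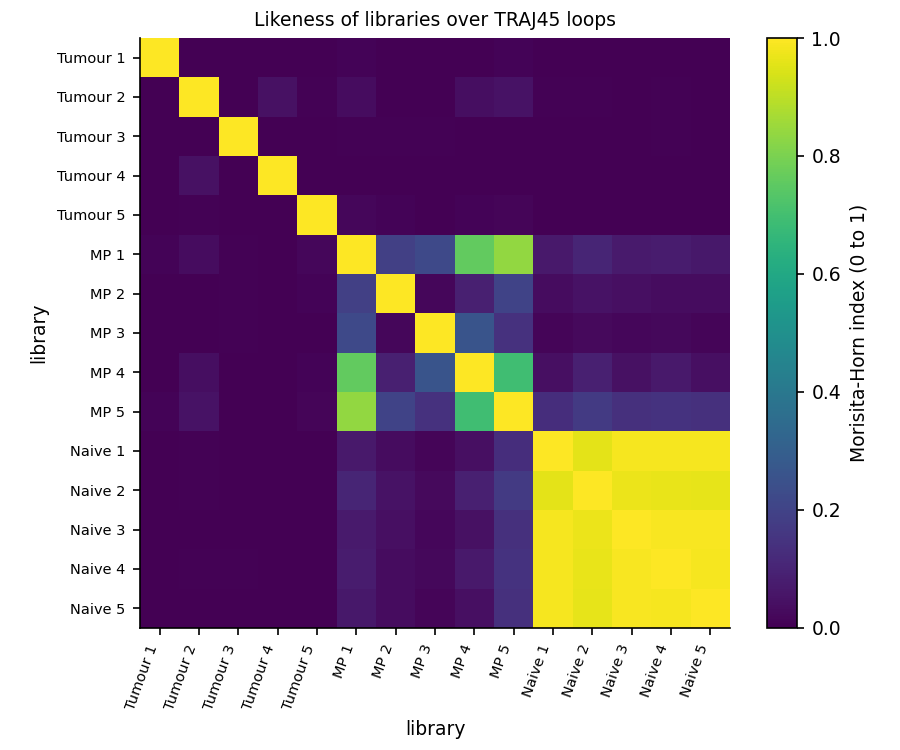
The colour gives the Morisita-Horn index over TRAJ45 loops, from 0 to 1, for each pair of the 15 libraries. Naive libraries form a block with a mean of 0.979, MP 1, MP 4 and MP 5 resemble each other, and no tumour exceeds 0.0502 with any other library.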

How the data were processed

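Each deposited list gives, for 1 library, raw counts of reads beside CDR3 peptides, not normalized. Per the labels, Trizol RNA went to iRepertoire for arm-PCR amplification. For the alignment, CDR3 calling, error filters and any molecular identifiers, the method is not given in the sources used here. A CDR3 that is not listed had fewer than 2 reads unless a filter removed it, and floors of 3 reads per library (0.000390% in Tumour, 0.000438% in MP and 0.000502% in Naive libraries on average) and p-values do not cover PCR error. Depth is each list's total.

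Members were matched by their last 6 residues. The members, lists and tests were chosen with earlier results of these data known. Shares, features (7 per comparison) and starts with at least 5% of TRAJ45 reads in a group were compared over libraries by exact permutation tests over the 252 splits, 2 times the smaller tail, with Benjamini-Hochberg adjustment. The smallest p is 0.00794. Single CDR3s were tested on raw counts with edgeR 4.0.16 in R 4.3.3 (quasi-likelihood, robust, total reads as library size, at least 10 reads in at least 3 libraries, adjusted p under 0.05 over all CDR3s tested), each pair of groups alone. DESeq2 1.42.0, TMM, other filters, other end lengths (5 and 7 residues), folding of CDR3s that lie 1 substitution from one 100 times as abundant, and each library left out were the alternatives. A joining end was extended by its commonest preceding residue while that stood in at least 25% of the loops. The scripts were tested on simulated data.

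Named loops are the 10 of highest mean share in each group, the 10 called loops of highest mean share in each direction of each comparison, the top loop of each library, and any in all 15 libraries. APLNTEGADRLT, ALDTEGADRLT, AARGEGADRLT and ALPGADRLT were named after their values were seen. Libraries with the same number were not treated as pairs between MP and Naive. The labels do not say that they share mice, and the correlations of their deviations were 0.0125 to 0.0470. If MP and Naive libraries came from the same mice, the unpaired tests do not take this into account. No 2 libraries of a group agreed within sampling noise. The other tools were python 3.11.15, pandas 2.3.3, numpy 2.4.6, scipy 1.17.1 and, for plots, matplotlib 3.10.9.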

Additional observations from a re-analysis of the deposited data

Results flagged for a closer look

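In 42 of the 102 sets of 5 libraries examined, 1 library stood far from the other 4 by Dixon's test, of which chance gives about 1 in 20. Many of these sets are a single loop listed in 1 or few libraries, so that the other values are at or near 0, and values of single loops below are percent of all reads of a library.

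In tumours, Tumour 5 had the highest charge before the end, 0, and the lowest share of TRAJ45 reads with E before the end, 37.2%. Starts with AP reached 29.0% and with AY 4.43% of TRAJ45 reads in Tumour 2, and with AS 35.4% in Tumour 3. Tumour 4 was highest in ALIGNTEGADRLT (0.585%), in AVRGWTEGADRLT (0.205%) and in the loop of 17 residues beginning with AVS (0.125%). Tumour 3 was highest in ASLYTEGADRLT (0.269%), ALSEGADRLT (0.0966%), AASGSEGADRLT (0.0958%), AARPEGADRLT (0.0896%) and ALITNTEGADRLT (0.0788%). Tumour 2 was highest in APSTEGADRLT (0.148%), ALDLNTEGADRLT (0.0184%), AAKSEGADRLT (0.00295%) and EDTEGADRLT (0.00193%). Tumour 1 was highest in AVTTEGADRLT (0.0912%) and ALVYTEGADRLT (0.00201%), and Tumour 5 in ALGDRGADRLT (0.0351%).

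In MP, MP 2 had the least negative charge, -0.931, and the lowest share with E before the end, 81.4%, and it was highest in ATNTEGADRLT (0.0850%), ALGADRLT (0.0629%) and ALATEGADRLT (0.0336%). MP 3 had the most AP starts, 20.4% of TRAJ45 reads, and was highest in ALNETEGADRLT (0.255%), APTCTEGADRLT (0.139%) and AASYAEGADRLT (0.0157%). MP 1 had the most AY starts, 0.339% of TRAJ45 reads, and was highest in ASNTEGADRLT (0.00295%), AYTEGADRLT (0.00249%) and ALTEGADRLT (0.00136%). MP 5 was highest in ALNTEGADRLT (0.0127%), AFNTEGADRLT (0.00453%) and APSTEGADRLT (0.00175%), and MP 4 in EDTEGADRLT (0.0228%) and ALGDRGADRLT (0.00383%).

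In Naive libraries, Naive 2 had the highest read share of TRAJ45 loops, 1.95%, and was highest in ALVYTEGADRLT (0.0314%) and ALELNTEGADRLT (0.00876%), and Naive 1 was highest in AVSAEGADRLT (0.00583%). Between groups, the excess of residues before the end in TRAJ45 loops over other loops was larger in MP than in Naive libraries by 0.630 (adjusted exact permutation p = 0.0278).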

How the results depend on the processing

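The read share kept its direction in all 3 comparisons under every alternative (lists cut at 10 reads, folding, ends of 5 or 7 residues, the most abundant loop left out, edgeR on reads per end, each library left out). The likeness results, run without each library and without MP 1 and MP 5, kept direction and call there. With 1 library left out the smallest exact p is 0.0159. The read share in MP against Naive and its AA, AS and AY starts passed in 10 of 10 such fits, the read share in Tumour against Naive in 5 of 10. Other calls mostly did not pass. The adjusted p then rests on how many results of a comparison reach the smallest exact p. A lost call therefore need not mean a smaller difference. E before the end and residues relative to other loops, in MP against Naive, passed in 1 of 10 each (highest adjusted exact p = 0.0556). Their differences stayed between -6.68 and -3.73 percentage points and between 0.598 and 0.697 residues. In Tumour against Naive, charge and the top loop passed in 2 of 10 each (highest adjusted exact p = 0.0556). AY starts passed there in 1 of 10 (highest adjusted exact p = 0.0952).

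Without MP 1 and MP 5, MP minus Naive was -0.938 for the read share, against -0.913 with all libraries. It was 0.555 against 0.630 for residues before the end relative to other loops. For the share with E before the end it was -6.81 against -5.84. None of these then passed. With 3 against 5 libraries the smallest exact p is larger, so that this loss does not show differences that rest on MP 1 and MP 5. Without MP 1 and MP 5 the share held by the most abundant loop turned to 2.47. In these fits 3 of 86 loops tested were called higher in MP than in Naive, and 2 of 5 tested lower in Tumour than in MP. The filter still asked for 10 reads in 3 libraries, which a loop of MP alone then had to reach in every MP library left. The share of distinct CDR3s turned to 0.107 in MP minus Naive with CDR3s under 10 reads left out, and to 0.113 in Tumour minus MP with folding. With each distinct loop counted once, MP minus Naive was -0.280 for residues, 0.0724 for charge, 0.0465 for charge relative to other loops and -5.15 for E before the end, and Tumour minus Naive was -0.251 for residues, -0.0353 relative to other loops and 0.225 for charge. That weighting does not define a most abundant loop. By edgeR on reads per end, Tumour over Naive was -1.69 on the log2 scale (adjusted p = 0.0530). The causes of these changes were not tested.

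With at least 50 reads required, fewer loops were tested: 29 in MP against Naive, 12 in Tumour against MP and 21 in Tumour against Naive. In MP against Naive 6 were called higher and 14 lower. In Tumour 10 were called lower than in MP and 21 lower than in Naive. With no filter 615, 130 and 516 loops were tested, in the same order of comparisons. The calls there were 34 higher and 323 lower, 2 higher and 93 lower, and 1 higher and 482 lower. DESeq2 called 1 loop higher in Tumour than in MP. The share called over all CDR3s is given for the main fits only. Counts from other filters, DESeq2, the block and fits with libraries left out therefore have no background beside them.

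With the library number as a replicate block, 9 of 107 loops tested were called higher and 48 lower in MP. The read share moved to a log2 fold change of -1.13 against -1.09 without the block, and ATNTEGADRLT turned to -6.48. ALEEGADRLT (adjusted p = 0.117) and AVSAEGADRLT (adjusted p = 0.214) lost their calls. In 4 of 5 pairs the same number gave the highest correlation, a hint from the data, while the labels do not say which libraries share a mouse.

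Leaving out each library in turn, MP minus Naive ranged between -0.597 and -0.301 for the distinct share, 0.242 and 0.366 for residues, 0.598 and 0.697 for residues relative to other loops, -0.232 and -0.147 for charge, -0.252 and -0.177 for charge relative to other loops, -6.68 and -3.73 for E before the end, -4.96 and 0.127 for the top loop and -1.61 and 2.10 for AL starts (2.10 without MP 2). Between 7 loops (without Naive 1 or 3, or MP 1 or 5) and 16 were called higher, where 94 to 105 were tested. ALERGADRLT ranged between -0.51 and 0.0455 and ATNTEGADRLT between -8.26 and 1.85 on the log2 scale, both reversed without MP 2.

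Tumour minus MP ranged between -0.399 and -0.164 for the read share and -0.665 and -0.0461 for the distinct share (both nearest 0 without Tumour 5), -0.310 and 0.387 for residues (reversed without Tumour 4), -9.71 and 5.99 for E before the end (reversed without Tumour 5), and for starts between -3.53 and 5.39 for AP (Tumour 2), -0.173 and 8.67 for AS (Tumour 3) and -0.0789 and 1.03 for AY (Tumour 2). Loops called lower numbered 10 to 23, where 18 (without MP 5) to 32 (without Tumour 5) were tested. The shares called over all CDR3s in these fits are not given here. On the log2 scale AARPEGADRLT ranged between -3.27, without Tumour 3, and 3.56.

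Tumour minus Naive ranged between -1.31 and -1.08 for the read share, -1.13 and -0.516 for the distinct share, -0.0277 and 0.669 for residues and -0.199 and 0.467 relative to other loops (both reversed without Tumour 4), 0.159 and 0.391 for charge, -0.181 and 0.125 for charge relative to other loops and -15.6 and 0.143 for E before the end (both reversed without Tumour 5). For the top loop the range was 19.1 to 26.8, relative to other loops 7.18 to 13.3, and for AS starts -4.48, without Tumour 3, to 4.36.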
